A study of Mus musculus with 27 samples.

Results

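Glucocorticoids such as corticosterone, the main stress hormone of mice, enter cells and bind the glucocorticoid receptor, a transcription factor held ready in the cytoplasm by heat shock proteins. The bound receptor moves to the nucleus and raises the transcription of a set of genes, often through an inverted repeat of the half-site AGAACA in their DNA. In brain, the transcripts of Sgk1, Fkbp5, Tsc22d3, Zbtb16, Pdk4, Cdkn1a, Errfi1, Plin4 and Klf9 are known to rise after stress or hormone, each with other inputs of its own. The levels of these 9 targets and of Nr3c1, which codes for the receptor, were read from gene counts of mouse brain, 10 genes of the 52636 identifiers counted. They were chosen by symbol, with earlier results of these data known. Each matched 1 Ensembl identifier, and 10 of 10 passed the filter of at least 1 CPM (a count scaled to the library's total) in every library of both regions.

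The 27 libraries came from frontal cortex and striatum of mice on a 129S1 background, about 2.5 months old. The Igf2enh-/- mice (KO) carried a homozygous germline deletion of 4.9 kb between Igf2 and H19 (mm9, chr7:149796331-149801250) made by gene targeting in ES cells, and a cross to an Hprt-CRE line later removed the selection cassette and left 1 loxP site, while the wild-type mice (WT) lacked the deletion. There were 6 WT and 6 KO libraries of frontal cortex, with 3 females and 3 males in each, 7 WT libraries of striatum (3 females, 4 males) and 8 KO libraries of striatum (4 females, 4 males). No mouse was given a steroid or a stressor according to the labels, the mice were housed by sex with littermates, and neither the hour at which tissue was taken nor a hormone level was found in the sources used here. The labels do not say which cortical and striatal libraries share a mouse, so tests between the regions treated libraries as independent, and nothing but the library number marks the replicates as separate animals.

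Total counts ran from 23686945 to 33926904 per library, and the lowest count of any of the 10 genes in any library was 30. The deleted fragment holds no gene of the count tables, so the counts cannot check the genotype labels directly. Igf2 beside it had a higher level in KO than in WT, with a log2 difference of 0.77 ± 0.13 (SE) and an adjusted p of 0.0285 in frontal cortex (edgeR quasi-likelihood test) and of 0.89 ± 0.33 with an adjusted p of 0.386 in striatum. Striatal Igf2 levels did not overlap, at 34.1 to 44.0 CPM in WT and 46.03 to 61.6 in 7 of 8 KO libraries, with the remaining KO library (15) at 258 CPM. The KO libraries highest in Igf2, 1 in frontal cortex and 15 in striatum, also held the most RNA of meningeal fibroblast markers in their region. The part of such cells in the Igf2 values was not tested. The summed level of 9 medium spiny neuron markers was 3789 to 10470 CPM in striatal and 177 to 259 CPM in cortical libraries. A few striatal libraries stood apart: a KO female (library 15) held 3347 CPM of choroid plexus markers against 28.8 to 157 in the others, a WT male (library 20) held the most cortical projection neuron and oligodendrocyte RNA (1234 and 10655 CPM), and another WT male (library 22) the next most oligodendrocyte RNA (9296 CPM). Library 22 also had the lowest RNA concentration (61.2 ng per µl) and 260/280 ratio (2.04). The other libraries had at least 134.8 ng per µl and 2.06, and neither measure was a model term. The striatal genotype values of the 5 genes with lower levels in KO, the counts of separated males and the correlations are also given without libraries 15, 20 and 22. In bulk tissue, fewer cells of a type and less RNA per cell cannot be told apart.

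The promoter table of RefSeq (GRCm38.p6) held windows of 250 bases before to 50 after a transcript start for 8 of the 10 genes, 17 windows in all, and none for Zbtb16 or Nr3c1. Both strands were searched for the full inverted repeat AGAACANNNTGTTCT, for the shorter core GNACANNNTGTNC, which the full repeat contains, and for the half-site AGAACA alone, which also lies within the full repeat. The full repeat occurred in 3 of 32851 windows of the table (0.00913%), and 1 of those 3 was a window of Sgk1, which codes for a kinase that regulates ion channels and transporters. That start is the fifth of 6 listed for Sgk1 and lies within the span of the longest form of the gene (chr10:21882184-21999903). The 250 bases before it, chr10:21993640-21993889 on the + strand, are shown because they hold the repeat, which is in capitals and ends 175 bases before the start.

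Sgk1: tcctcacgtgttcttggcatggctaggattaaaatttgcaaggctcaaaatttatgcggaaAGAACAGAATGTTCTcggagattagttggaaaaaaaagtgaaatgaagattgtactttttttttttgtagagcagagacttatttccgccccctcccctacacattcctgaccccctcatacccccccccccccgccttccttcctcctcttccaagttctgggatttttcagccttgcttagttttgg

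The shorter core occurred in 156 of the windows (0.475%), for 1 of the 8 genes with a window (Sgk1) and for 4 of 23 genes in a list of other transcripts known to rise after glucocorticoid exposure. These were Map3k6, a kinase (chr4:133240629-133240657), Slc10a6, a transporter of steroid sulphates (chr5:103629546-103629574), Mt1, a metallothionein (chr8:94178987-94179015), and Fam107a, an actin-binding protein (chr14:8309877-8309905). They are set beside the Sgk1 site (chr10:21993694-21993722) so that the letters of the core, in capitals, can be compared. Each is read 5′ to 3′ on the strand of its gene, which is the - strand for Slc10a6 and Fam107a.

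Sgk1: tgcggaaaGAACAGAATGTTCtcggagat
Map3k6: gaatagggGCACAGGCTGTTCcggaagtg
Slc10a6: cttccctaGAACACGATGTGCcactgtcg
Mt1: cactatagGGACATGATGTTCcacacgtc
Fam107a: ggtggcttGGACATGGTGTTCtgagtctc

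The half-site alone was common, with a match in 6233 windows (19.0%). Among the 8 genes it was found for Sgk1, in 3 of its 6 windows, and for Tsc22d3, in 1 of 3 windows, where it began 185 bases before the start. No match says only that these letters are not in this window, and a match is a description, not a site in use.

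Per length, Klf9 was the most abundant of the 10 genes in both regions, and Plin4 the least. Klf9, a zinc finger transcription factor, had 74.2 ± 7.04 CPM per kb of exon (mean ± SD, n = 12) in frontal cortex and 95.2 ± 14.3 (n = 15) in striatum. In frontal cortex Nr3c1 (18.4 ± 1.77), Zbtb16 (15.0 ± 2.57), Sgk1 (14.3 ± 4.00) and Tsc22d3 (14.1 ± 2.62) followed, and these neighbours in the order did not differ beyond their spread, likewise Cdkn1a (9.56 ± 3.69) and Errfi1 (8.95 ± 1.19) CPM per kb. Fkbp5, Pdk4 and Plin4 came last, with 5.14 ± 1.19, 3.64 ± 0.485 and 0.611 ± 0.36 CPM per kb. In striatum Sgk1 stood second with 27.2 ± 12.5 and Zbtb16 ninth with 4.41 ± 3.07 CPM per kb.

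Regional differences were clear for most of the genes. In the fit over all 27 libraries, 8 of the 10 differed between striatum and frontal cortex at an adjusted p under 0.05 (edgeR quasi-likelihood test), 5 higher and 3 lower in striatum. This share was near that of all tested genes, of which 77.5% were called, 39.4% higher and 38.2% lower. The log2 difference, striatum minus cortex, was 0.92 ± 0.15 (SE) for Sgk1 (adjusted p = 6.67e-06), 0.88 ± 0.13 for Fkbp5 (7.23e-07), 1.02 ± 0.35 for Plin4 (0.0102), 0.65 ± 0.11 for Pdk4 (1e-05) and 0.37 ± 0.07 for Klf9 (2.94e-05). Fkbp5 codes for a cochaperone that lowers the receptor's affinity for hormone, Plin4 for a coat protein of lipid droplets, and Pdk4 for a kinase that shuts down pyruvate dehydrogenase. Zbtb16, a transcriptional repressor, was lower in striatum by far, at 6.44 to 69.3 CPM against 63.9 to 114 CPM in cortex, with a log2 difference of -1.81 ± 0.25 (adjusted p = 3.6e-07). Cdkn1a, which codes for the cell cycle inhibitor p21, differed by -0.72 ± 0.14 (adjusted p = 4.79e-05). Tsc22d3, which codes for the leucine zipper protein GILZ, differed by -0.25 ± 0.11 with an adjusted p of 0.0405, and this call was lost with no filter (0.0514), with total count scaling (0.0664), without the sex term (0.0626) and without some single libraries. Nr3c1 (-0.09 ± 0.05, adjusted p = 0.0753) and Errfi1 (-0.06 ± 0.06, adjusted p = 0.295) were not called.

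**Figure D1:**
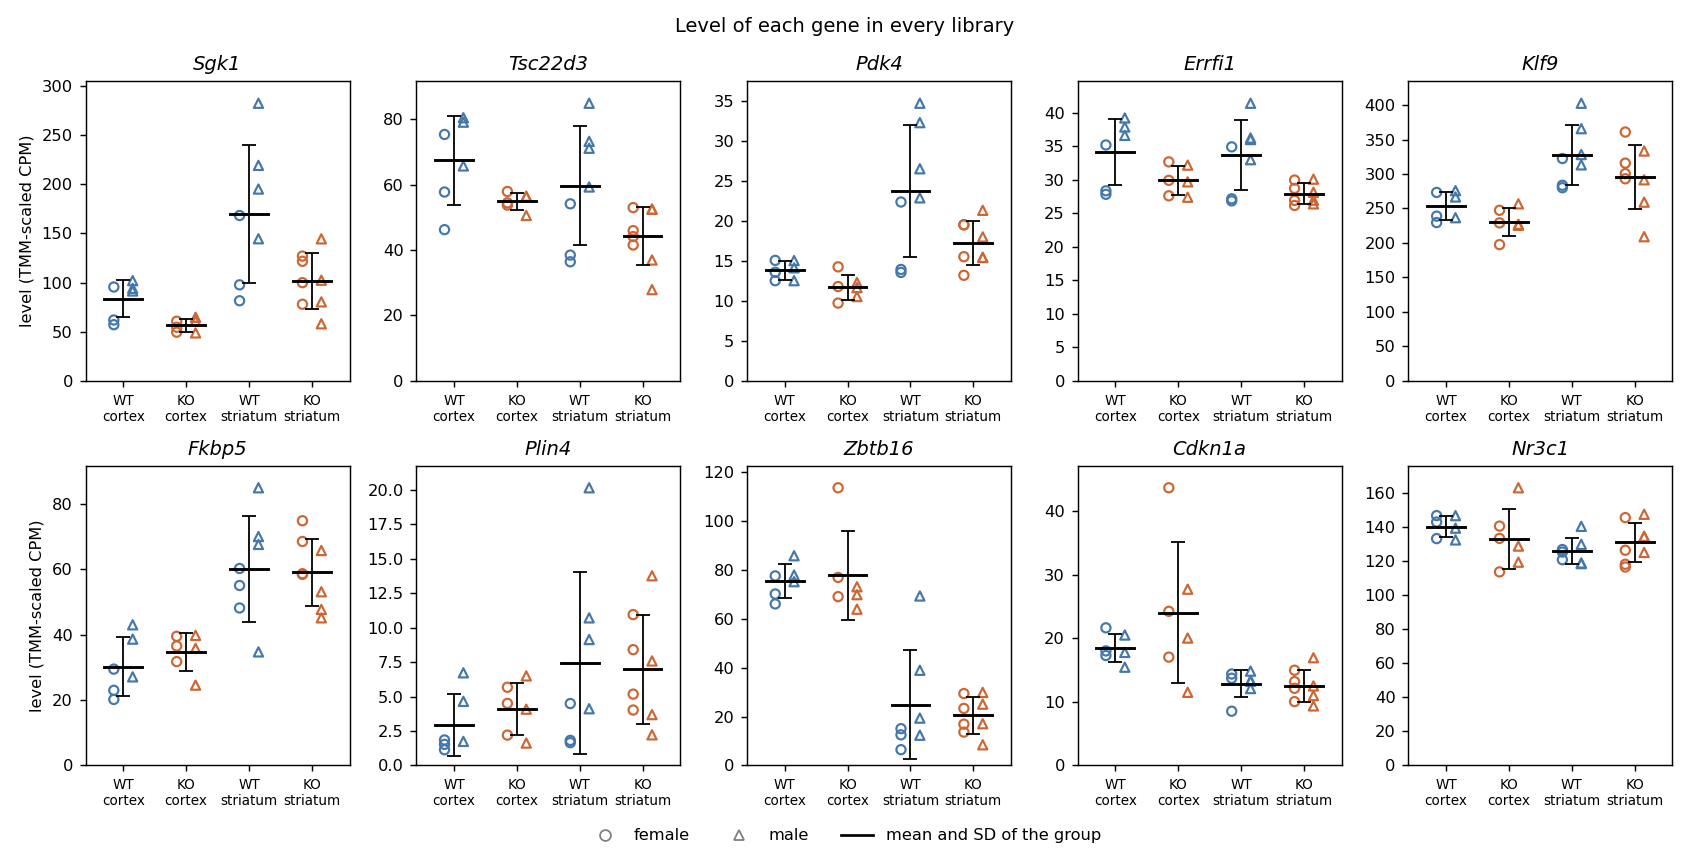
Level of each gene in TMM-scaled CPM (y axis, from 0) in every library of the 4 groups (x axis), with females as circles, males as triangles, WT in blue and KO in orange, and the mean and SD of each group in black. WT males reached 282 CPM of Sgk1 in striatum (library 22), where the highest KO library had 144, whereas Fkbp5 and Plin4 of the genotypes overlapped widely in both regions.

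Between genotypes, Sgk1, Tsc22d3, Pdk4, Errfi1 and Klf9 had lower mean values in KO in both regions, without passing the test. Sgk1 had the smallest p of the 10 in frontal cortex, where its mean was 56.6 ± 6.59 CPM in KO against 83.7 ± 19.1 in WT (SD, n = 6 each). No member passed an adjusted p of 0.05 in either region by the edgeR quasi-likelihood test (0 of 10 in each), where 0.38% of all tested genes passed in frontal cortex and 0.036% in striatum. At an unadjusted p under 0.05, 5 of 10 had lower values in KO in frontal cortex, against 6.6% of all tested genes, and 3 of 10 in striatum, against 5.1%, and 0 of 10 had higher values in either (6.87% and 4.94% of all tested genes). The median log2 difference, KO minus WT, was -0.11 over the 10 genes in both regions, with a median of 0.00 over all tested genes. The genes vary together across libraries, so these counts are not those of 10 separate observations. The 10 genes were also chosen with earlier results of these data known, so the counts beside the shares are a description, not a test.

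In frontal cortex, Sgk1 ran from 48.8 to 64.7 CPM in KO with a median of 57.6, and from 57.1 to 102 with a median of 92.8 in WT. The groups overlapped only through the WT females, since 4 of 6 WT libraries, 1 female and the 3 males, stood above the highest KO library. The log2 difference was -0.55 ± 0.12 with an adjusted p of 0.0581 (edgeR quasi-likelihood test), close to the threshold. It passed with DESeq2 (adjusted p = 0.0205), with edgeR's likelihood ratio test, the test used in the study (0.00117), and without 1 WT female, library 2 (0.0255). The quasi-likelihood test with no filter also passed it (2.64e-08), where 459 of 33060 genes passed against 53 of 13936 with the filter. Sgk1 itself passes the filter, and its log2 difference ran only from -0.57 to -0.54 over the alternatives. Why p fell without the filter was not tested. The adjusted p over the remaining alternatives and left-out libraries reached 0.15. The log2 difference itself stayed between -0.63 and -0.46 when each library was left out.

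In striatum, Sgk1 ran from 58.0 to 144 CPM in KO with a median of 101, and from 81.5 to 282 CPM with a median of 168 in WT. The 8 KO libraries all lay under the WT median, and 5 of 7 WT libraries stood above the highest KO library. The log2 difference was -0.67 ± 0.25 (adjusted p = 0.389), and -0.45 without libraries 15, 20 and 22 (adjusted p = 0.592). Both of the WT libraries highest in oligodendrocyte RNA, 20 and 22, were also those highest in Sgk1, at 219 and 282 CPM.

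Tsc22d3 was near constant across the KO cortex, at 50.6 to 57.9 CPM with a median of 55.4, while WT ranged from 46.2 to 80.5 CPM with a median of 70.5. The KO libraries thus lay inside the WT range, under its median in 6 of 6. The log2 difference was -0.29 ± 0.10 in frontal cortex (adjusted p = 0.234, passing only with no filter, at 0.00312). In striatum KO had 27.9 to 53.0 CPM (median 45.0) and WT 36.4 to 84.9 (median 59.3), a log2 difference of -0.37 ± 0.18 (adjusted p = 0.509), and of -0.24 without libraries 15, 20 and 22 (0.729).

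Errfi1 codes for an inhibitor of the EGF receptor. It had 27.4 to 32.7 CPM in KO cortex (median 29.8) and 27.8 to 39.2 in WT cortex (median 35.9), with a log2 difference of -0.19 ± 0.08 (adjusted p = 0.298). In striatum it had the smallest p of the 10, with 26.2 to 30.1 CPM in KO (median 27.5) against 26.9 to 41.4 in WT (median 34.9), a log2 difference of -0.25 ± 0.08 (adjusted p = 0.295), and of -0.19 without libraries 15, 20 and 22 (0.429). In both regions the narrow KO range overlapped the lower end of the wider WT range.

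Pdk4 had 9.73 to 14.3 CPM in KO cortex (median 11.7) against 12.5 to 15.1 in WT (median 13.9), and 5 of 6 KO libraries lay below every WT library. Its log2 difference was -0.24 ± 0.09 in frontal cortex (adjusted p = 0.244) and -0.39 ± 0.17 in striatum (adjusted p = 0.456), where KO had 13.2 to 21.3 CPM and WT 13.6 to 34.7. In striatum the value was -0.21 without libraries 15, 20 and 22 against -0.39 with them. Klf9 had log2 differences of -0.14 ± 0.06 in frontal cortex (adjusted p = 0.337) and -0.15 ± 0.11 in striatum (adjusted p = 0.706), the smallest of these 5 genes, with -0.095 in striatum without the 3 libraries (0.853).

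In frontal cortex the other targets had values above 0, and in striatum Fkbp5, Zbtb16 and Cdkn1a had values just below 0. Fkbp5 had 24.6 to 39.8 CPM in KO cortex (median 36.2) and 20.2 to 43.0 in WT (median 28.3), a log2 difference of 0.22 ± 0.16 (adjusted p = 0.582), and -0.03 ± 0.16 in striatum (0.966). Plin4 was low and scattered, at 1.62 to 6.50 CPM in KO and 1.14 to 6.72 in WT cortex and at 2.22 to 13.8 in KO and 1.65 to 20.1 in WT striatum. Its log2 differences of 0.56 ± 0.40 and 0.16 ± 0.51 were within the spread of the libraries, and the striatal one was below 0 with limma-voom (-0.07) and without the sex term (-0.11). Cdkn1a differed by 0.37 ± 0.22 in frontal cortex (adjusted p = 0.493) and -0.04 ± 0.14 in striatum, Zbtb16 by 0.04 ± 0.12 and -0.07 ± 0.43. In the KO cortex a single female, library 1, had the highest level of both Zbtb16 (114 CPM, next 76.9) and Cdkn1a (43.7 CPM, next 27.7), and without it the Zbtb16 difference was -0.10 and that of Cdkn1a 0.14.

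The genotypes overlapped in the level of the receptor gene in both regions. Nr3c1 had 114 to 163 CPM in KO and 132 to 147 CPM in WT cortex, and 117 to 148 CPM in KO and 119 to 140 in WT striatum, with a log2 difference of -0.08 ± 0.07 (adjusted p = 0.672) and 0.07 ± 0.05 (adjusted p = 0.747). The test of the genotype effect between regions passed for none of the 10 genes, nor for any other tested gene (0 of 13414 at an adjusted p under 0.05 by edgeR's quasi-likelihood test, 3.02% at an unadjusted p under 0.05, of which 0 of the 10).

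**Figure D2:**
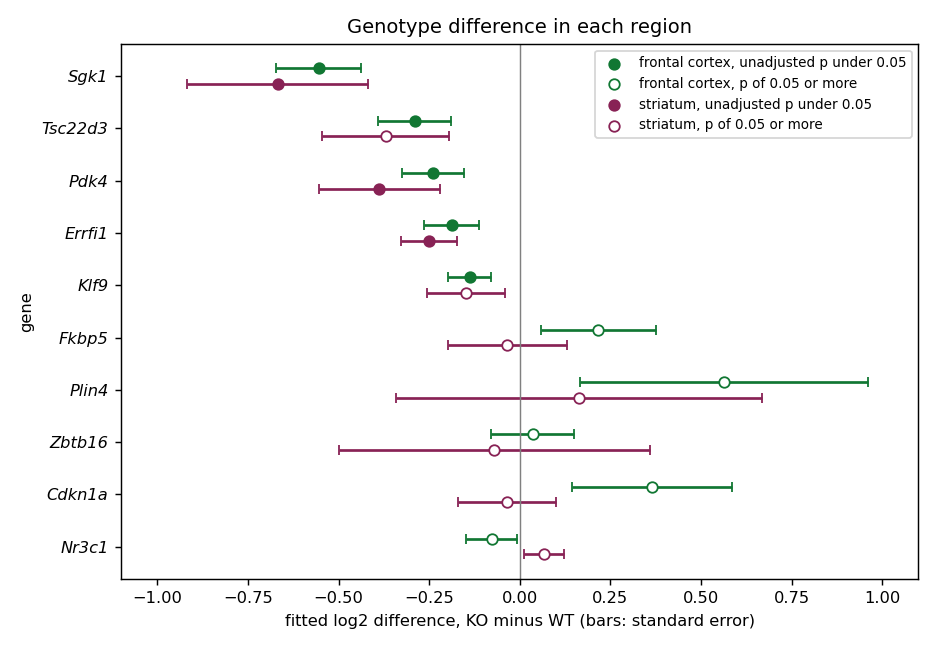
Fitted log2 difference, KO minus WT, with its standard error (x axis) for each gene (y axis) in frontal cortex (green, 12 libraries) and striatum (purple, 15 libraries), filled where the unadjusted p was under 0.05. Sgk1, Tsc22d3, Pdk4, Errfi1 and Klf9 lie below 0 in both regions, from -0.67 to -0.14, and the points of the other 5 genes lie from -0.08 to 0.56.

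Within sexes, the Sgk1 levels of the genotypes were apart in males. In frontal cortex, WT males had 94.1, 91.4 and 102 CPM of Sgk1 and KO males 48.8, 61.1 and 64.7, with no overlap, whereas WT females had 57.1, 61.9 and 95.5 and KO females 49.5, 54.6 and 60.7. In striatum, WT males had 219, 282, 195 and 144.5 CPM and KO males 58.0, 144.4, 102 and 80.3, so the male groups did not overlap but met within 1 CPM. The striatal females overlapped, with 97.7, 81.5 and 168 CPM in WT and 122, 99.9, 77.9 and 127 in KO.

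The same held for Tsc22d3, Pdk4 and Errfi1, whose male KO libraries were below every male WT library in both regions. Tsc22d3 had 59.3 to 84.9 CPM in WT and 27.9 to 52.5 in KO striatal males, against 36.4 to 54.1 in WT and 41.5 to 53.0 in KO females. Pdk4 had 22.9 to 34.7 CPM in WT and 15.4 to 21.3 in KO striatal males, against 13.6 to 22.4 and 13.2 to 19.5 in the females, and Errfi1 33.0 to 41.4 and 26.4 to 30.1 in the males against 26.9 to 34.9 and 26.2 to 30.0 in the females. In all, male KO libraries were below all male WT libraries for 5 of 10 genes in frontal cortex, where 7.94% of all tested genes showed this, and for 4 of 10 in striatum, where 1.82% did. Of the 4 striatal WT males, 2 were libraries 20 and 22, and without them the count was 5 of 10 (Fkbp5 added), where 6.83% of all tested genes showed this. Leaving out WT males cannot undo a separation, so this count could not fall and does not check the part of these 2 libraries. Nr3c1 then separated the other way, with KO males above the WT males.

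For Plin4 and Fkbp5 the genotypes were apart in cortical females instead. WT females had 1.53, 1.14 and 1.85 CPM of Plin4 and KO females 5.67, 2.20 and 4.50, and WT females had 23.0, 20.2 and 29.5 CPM of Fkbp5 and KO females 39.5, 31.8 and 36.5. These groups did not overlap, as for 7.02% of all tested genes in that direction. In males the ranges overlapped, at 1.74 to 6.72 CPM of Plin4 in WT and 1.62 to 6.50 in KO.

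Sex alone passed for 0 of 10 genes in either region, where 0.0431% of all tested genes passed in frontal cortex and 0.0432% in striatum. The sex by genotype term, the KO minus WT log2 difference in males minus that in females, tests this contrast. It did not pass for any of the 10 genes after adjustment by the edgeR quasi-likelihood test, with the smallest adjusted p at 0.763 in frontal cortex and 1.00 in striatum, and it passed for 3 of 13936 genes in frontal cortex (0.0215%) and 0 of 13875 in striatum. At an unadjusted p under 0.05 the term was below 0 for 7 of 10 genes in striatum, against 1.82% of all tested genes, and for 3 of 10 in frontal cortex (Fkbp5, Zbtb16 and Errfi1), against 3.07%. The cortical term of Zbtb16 was -0.49, and -0.24 without library 1. In striatum these were Tsc22d3 (-0.87 ± 0.28), Pdk4 (-0.77 ± 0.28), Klf9 (-0.48 ± 0.18), Plin4 (-2.12 ± 0.86), Errfi1 (-0.32 ± 0.13), Sgk1 (-1.02 ± 0.43) and Zbtb16 (-1.69 ± 0.74). The striatal term stayed below 0 for those 7 genes without libraries 15, 20 and 22, from -0.25 for Errfi1 to -2.79 for Plin4. Without another WT male, library 26, it was -1.11 for Zbtb16 and -1.66 for Plin4. With no filter on low counts 6 of the 10 passed in frontal cortex, where 310 of 33060 genes did in all. All 10 genes pass the filter, so it did not hide them. Over the alternatives the cortical term ran only from -0.69 to -0.68 for Fkbp5 and from -1.56 to -1.44 for Plin4. Why p fell without the filter was not tested. Since mice were housed by sex, cage cannot be told apart from sex here, and neither the cage nor the litter of a mouse was found in the sources used.

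**Figure D3:**
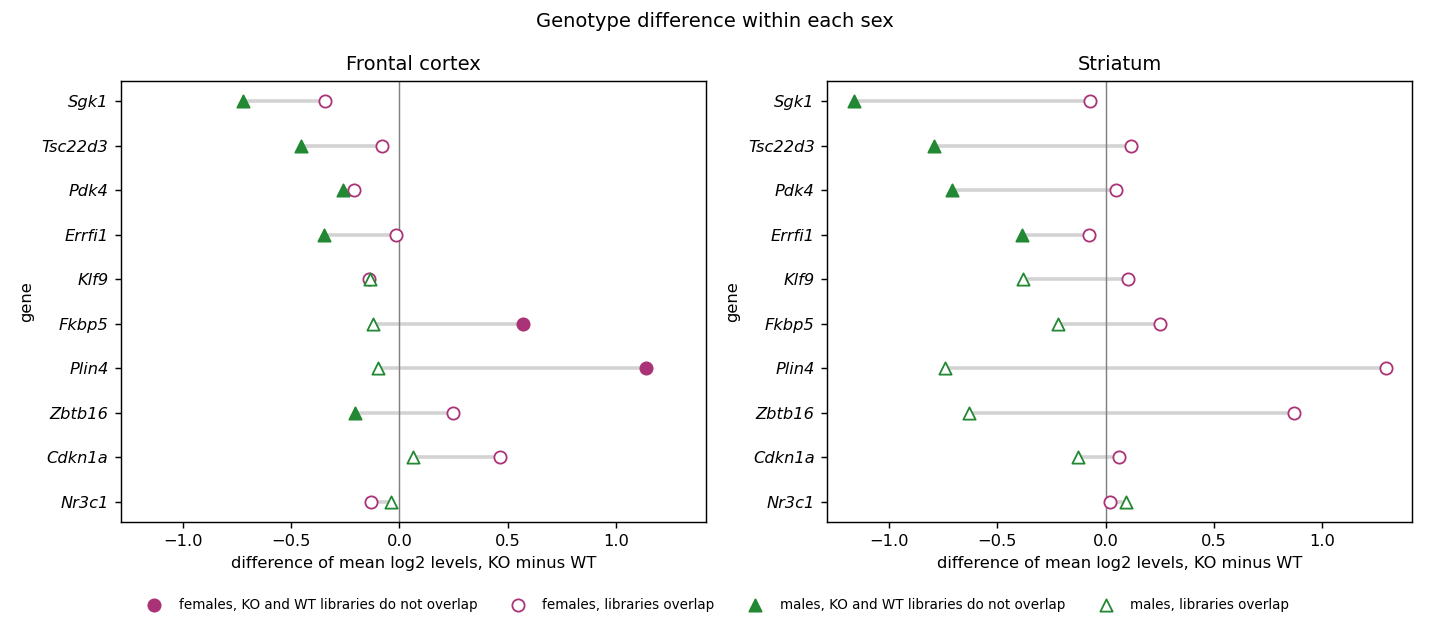
Difference of mean log2 levels, KO minus WT (x axis), for each gene (y axis) in females (circles) and males (triangles) of each region, filled where the KO and WT libraries of that sex did not overlap. In striatum 9 of 10 genes lie further left in males than in females, with Sgk1 at -1.16 in males and -0.07 in females, and in frontal cortex 8 of 10.

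Levels of the targets were also compared with each other across libraries. Log2 levels were correlated for 90 pairs of genes, 45 in each region, with permutation p-values adjusted over the 90. In striatum the 10 pairs among Sgk1, Tsc22d3, Pdk4, Errfi1 and Klf9 had Pearson's r from 0.63 to 0.94, and all 10 passed an adjusted p of 0.05. These 5 genes were set apart after the correlations were seen. Counts of passing pairs, within the set or with the other targets, thus describe the set and do not test it. The permutations shuffled all libraries of a region, so differences of genotype, sex and cell content enter the p-values. No share of passing pairs over all genes is given. Without libraries 15, 20 and 22 the 10 pairs had r from 0.57 to 0.89, and within the KO striatum alone from 0.081 to 0.81. In frontal cortex the same 10 pairs had r from 0.076 to 0.91 and 5 passed, and within KO cortex some were far below 0, such as Pdk4 with Klf9 at -0.94, Errfi1 with Klf9 at -0.89 and Sgk1 with Pdk4 at -0.79. The tightest in striatum was Pdk4 with Errfi1, r = 0.94 (permutation p = 1e-05, the smallest the permutations can give, adjusted 0.000225) and Spearman's rho = 0.90 (adjusted permutation p = 0.0006), which was 0.89 without the 2 libraries farthest from the Pdk4 median, 0.97 within WT and 0.80 within KO. Sgk1 with Tsc22d3 had r = 0.82 (adjusted permutation p = 0.0026) and rho = 0.86 (0.00162), with 0.80 without the 2 farthest libraries, 0.86 within WT and 0.59 within KO.

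In frontal cortex Sgk1 with Tsc22d3 had r = 0.91 (adjusted permutation p = 0.0026) and rho = 0.85 (0.00546), with 0.84 without the 2 farthest libraries, 0.92 within WT and 0.83 within KO. Sgk1 with Errfi1 rested on WT, where r was 0.97, since it was -0.52 within KO. Over all 12 libraries that pair had r = 0.78 (adjusted permutation p = 0.0198) and rho = 0.52 (0.185), with 0.66 without the 2 farthest.

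Fkbp5 and Plin4 formed the closest pair of all in frontal cortex. Their levels ranked the 12 libraries in the same order (rho = 1.00, adjusted permutation p = 0.0006) with r = 0.96 (adjusted permutation p = 0.000225), and r was 0.96 without the 2 farthest libraries, 0.96 within WT and 0.95 within KO. In striatum they had r = 0.73 (adjusted permutation p = 0.0117) and rho = 0.81 (0.0054), with 0.79, 0.70 and 0.80 in the same order. Neither was tied to Sgk1 in cortex, where r was 0.24 for Fkbp5 and 0.13 for Plin4, and over the 20 cortical pairs that join one of Fkbp5, Plin4, Zbtb16 and Cdkn1a with one of the 5 genes above, r ran from -0.41 to 0.51 and none passed by r, while Zbtb16 with Errfi1 passed by rho (0.85, adjusted permutation p = 0.00546; r = 0.51, 0.195). In striatum the same 20 pairs all had r above 0, from 0.077 to 0.66 with a median of 0.42, and 3 passed by r. These were Tsc22d3 with Zbtb16 (r = 0.66, adjusted permutation p = 0.0341; rho = 0.53, 0.117), Tsc22d3 with Plin4 (0.64, 0.0371; rho = 0.67, 0.0307) and Plin4 with Klf9 (0.63, 0.0389; rho = 0.84, 0.0033). Without the 2 farthest libraries their r was 0.51, 0.81 and 0.68. Fkbp5 with Klf9 passed by rho alone (0.81, adjusted permutation p = 0.0054; r = 0.61, 0.0582). Without libraries 15, 20 and 22 the 20 striatal pairs had r from 0.31 to 0.86, and Fkbp5 with Plin4 had 0.84.

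Nr3c1 had negative correlations with Fkbp5 and Plin4 in both regions. In frontal cortex its r was -0.71 with Fkbp5 (adjusted permutation p = 0.0371; rho = -0.80, 0.0133), -0.74 with Plin4 (0.0195; rho = -0.80, 0.0133) and -0.88 with Cdkn1a (0.0026; rho = -0.72, 0.0385). Without the 2 farthest libraries these were -0.77, -0.81 and -0.65. Within KO they were -0.96, -0.93 and -0.89 and within WT -0.69, -0.62 and -0.65. In striatum Plin4 (r = -0.49, adjusted permutation p = 0.191) and Cdkn1a (-0.42, 0.234) did not pass, and the pair with Fkbp5 did, with r = -0.70 (adjusted permutation p = 0.0195) and rho = -0.80 (0.0054), -0.64 without the 2 farthest libraries, -0.70 without libraries 15, 20 and 22, -0.82 within WT and -0.77 within KO. With Sgk1 the receptor had r = 0.02 in frontal cortex and -0.12 in striatum.

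**Figure D4:**
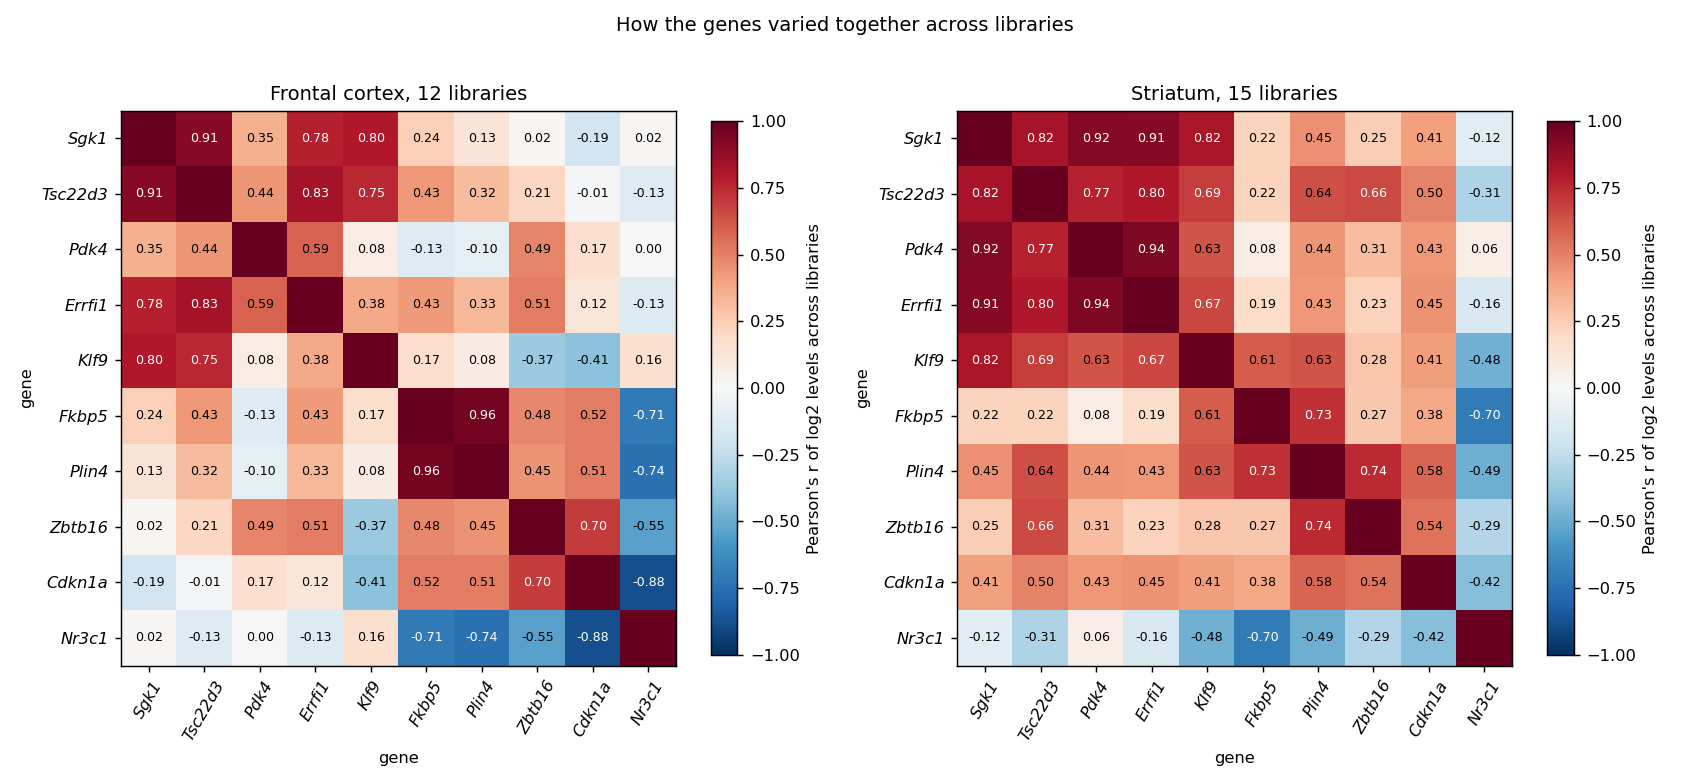
Pearson's r between log2 levels of each pair of genes across the 12 cortical and 15 striatal libraries, from blue (-1) to red (1), with genes on both axes. The 5 genes at the top left form a block in striatum (0.63 to 0.94), Fkbp5 and Plin4 a pair (0.96 in frontal cortex, 0.73 in striatum), and Nr3c1 is negative against both of that pair.

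The genes whose pattern was most like the mean standardised level of the 9 targets were Sh3bp2 (r = 0.93), Ddx21 (0.90), Slc2a1 (0.89), Lfng (0.88) and 5430417L22Rik (0.86) over the 12 cortical libraries, and ENSMUSG00000105843, Slc2a1, Adipor2, Acer2 and Hif3a (0.92 to 0.90) over the 15 striatal ones. Slc2a1, the glucose transporter of the blood-brain barrier, was in both lists. Genotype, sex and depth differ among these libraries and can move many genes together, so the values are a description.

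Other genes known to rise after glucocorticoid exposure had values on both sides of 0. Of 28 in the list, 24 were tested in frontal cortex and 23 in striatum, and 0 passed in either region. At an unadjusted p under 0.05, 5 had lower and 1 had higher values in KO in frontal cortex, and 6 and 0 in striatum. Over all tested genes the shares were 6.6% lower and 6.87% higher in frontal cortex and 5.1% and 4.94% in striatum. Values were below 0 for 13 of 24 in frontal cortex and 18 of 23 in striatum. The median log2 difference was -0.01 in frontal cortex and -0.10 in striatum. The lower ones in frontal cortex were Ddit4, an inhibitor of mTORC1 (-0.54 ± 0.12, adjusted p = 0.0651), the clock gene Per1 (-0.60 ± 0.15, 0.106), Nfkbia, which codes for the inhibitor of NF-kB (-0.40 ± 0.12, 0.179), the arrestin-like Arrdc2 (-0.32 ± 0.11, 0.2) and the phosphatase gene Dusp1. All 5 were also among the 6 in striatum, led by Per1 (-0.49 ± 0.09, adjusted p = 0.0587) and Dusp1 (-0.66 ± 0.15, 0.159). Mt1 and Fam107a, which carry the core printed above, had log2 differences of 0.01 ± 0.10 and 0.12 ± 0.09 in frontal cortex and -0.05 ± 0.08 and 0.09 ± 0.09 in striatum, while Map3k6 and Slc10a6 fell under the filter. Angptl4 and Lcn2 fell under it in both regions and Rasd1 in striatum.

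Of the receptor's chaperones and cofactors, a list of 16 that also holds Nr3c1 and Fkbp5, 2 rose in KO cortex by the adjusted test, where 0.129% of all tested genes rose. Stip1, which hands clients from Hsp70 to Hsp90, had 145 ± 4.78 CPM in KO against 127 ± 1.81 in WT (SD, n = 6 each; log2 difference 0.19 ± 0.03, adjusted p = 0.014), and Hspa8, the constitutive Hsp70, had 492 ± 18.5 against 434 ± 11.5 CPM (0.18 ± 0.03, adjusted p = 0.0301). Hsp90aa1 had log2 differences of 0.11 ± 0.03 (0.165) in frontal cortex and 0.20 ± 0.05 (adjusted p = 0.174) in striatum, where none of the 16 passed. The list's median was 0.06 in frontal cortex and 0.07 in striatum. Of 7 enzymes and transporters that set corticosterone within tissue, 6 were tested, 0 passed, and 6 of 6 had values below 0 in both regions, including Abcb1a, the efflux pump of the blood-brain barrier (-0.06 ± 0.06 and -0.13 ± 0.07), and Hsd11b1, which regenerates corticosterone (-0.19 ± 0.13 in frontal cortex). Of 16 paralogs of Sgk1, Tsc22d3, Zbtb16, Pdk4, Cdkn1a, Plin4 and Klf9, 12 were tested in frontal cortex and 13 in striatum. Only Plin3 passed, in frontal cortex, where 0.129% of all tested genes rose. It had 8.00 ± 0.612 CPM in WT and 10.7 ± 1.02 in KO cortex (0.41 ± 0.08, adjusted p = 0.0313), against a log2 difference of 0.18 ± 0.08 in striatum (0.489).

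Clock, activity and oligodendrocyte transcripts also had lower values in KO. All 10 clock genes in phase with Dbp had values below 0 in KO in both regions (medians -0.35 and -0.34), and Ciart fell in both, with log2 differences of -1.24 (adjusted p = 0.000467) and -1.18 (0.000668), with Dbp and Nr1d1 passing in frontal cortex. Thus 3 of 10 passed in frontal cortex and 1 in striatum, against 0.38% and 0.036% of all tested genes. At an unadjusted p under 0.05, 9 of 10 were lower and 0 higher in each region. Over all tested genes 6.6% were lower in frontal cortex and 5.1% in striatum. Per1, a clock gene as well as a glucocorticoid target, is in both lists. Of the 5 clock genes of the opposite phase, 4 were above 0 in frontal cortex and 5 in striatum, and 0 passed. All 10 immediate-early genes were below 0 in both regions (medians -0.63 and -0.66) and 0 passed, with Arc at -0.95 ± 0.25 in striatum (adjusted p = 0.207). At an unadjusted p under 0.05, 8 were lower in frontal cortex and 7 in striatum, and 0 higher in either. The lists were chosen with earlier results of these data known, so such counts are a description. All 10 oligodendrocyte markers were below 0 in both regions (medians -0.18 and -0.30) and 0 passed. Their summed levels were 989 to 2110 CPM in KO (median 1765) and 1590 to 2115 in WT cortex (median 1832). In striatum they were 5068 to 6511 CPM in KO (median 5419) and 4872 to 10655 in WT (median 6651). KO library 1 held the lowest cortical sum and WT library 20 the highest striatal sum. Marker values without single libraries are not given here. The part of these transcripts in the values of Sgk1, Tsc22d3, Pdk4 and Errfi1 was not tested.

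Markers of other cells were also read. None of the astrocyte (8), microglia (6), endothelium (8), mural (7), choroid plexus (8), meningeal fibroblast (8), medium spiny neuron (9) or cortical projection neuron (8) markers passed in either region. At an unadjusted p under 0.05 (edgeR quasi-likelihood test), 5 of 8 meningeal fibroblast markers were higher in KO cortex, against 6.87% of all tested genes. In striatum 1 of 7 tested was, against 4.94%. Median log2 differences were 0.03 and 0.03 for astrocytes, 0.00 and -0.04 for microglia, 0.00 and 0.01 for endothelium and -0.03 and -0.04 for mural cells in frontal cortex and striatum, 0.39 and 0.15 for meningeal fibroblasts, and -0.07 and 0.05 for medium spiny neurons. Cortical projection neuron markers had medians of -0.02 in frontal cortex and -0.32 in striatum. Choroid plexus markers were near the floor in frontal cortex (3.12 to 7.75 CPM in sum) and 1 of 8 was tested there, with 3 of 8 tested in striatum (median 1.33). The summed striatal level of the 8 had a lower median in KO (35.8 CPM) than in WT (50.4), while KO library 15 held 3347 CPM. The part of library 15 in the value of 1.33 was not tested.

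**Figure D5:**
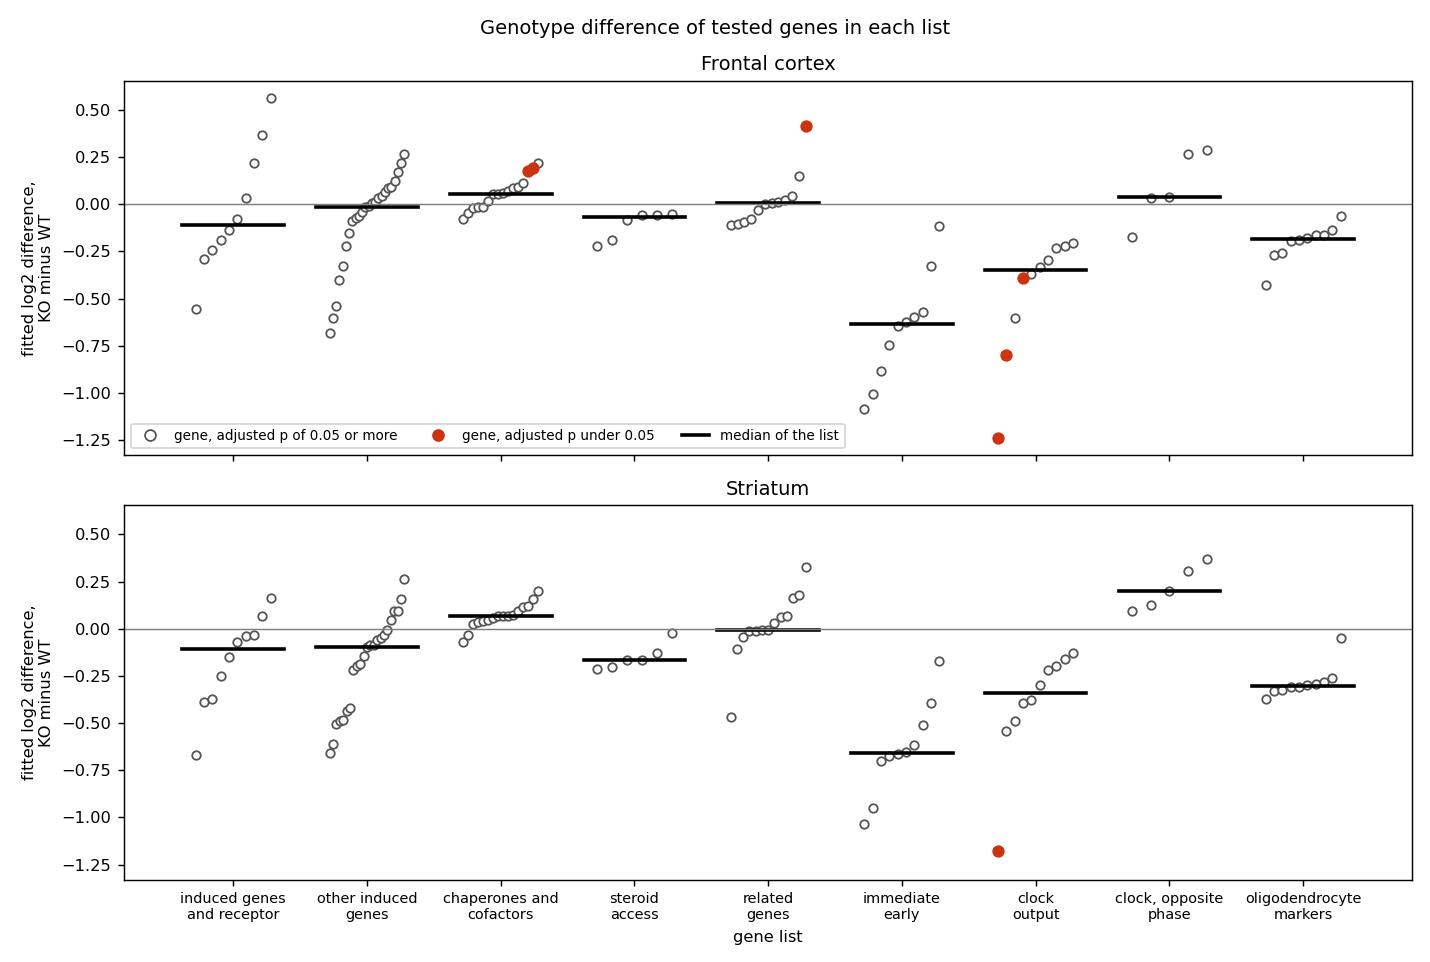
Fitted log2 difference, KO minus WT (y axis), of each tested gene (circles, in order of value within a list) for 9 gene lists (x axis) in frontal cortex and striatum, with red for an adjusted p under 0.05 and a bar at each list's median. The genes known to rise after glucocorticoid exposure spread on both sides of 0 with a tail below it, whereas all immediate-early, clock output and oligodendrocyte genes lie below 0.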

How the data were processed

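RNA-sequencing gene counts of 27 mouse libraries were analysed. The authors prepared ribosomal RNA-depleted libraries, sequenced single ends of 75 bp, ran Trim Galore 0.5.0 and STAR (GRCm38, GENCODE vM15) and deposited raw counts per gene. Whether counting used strand is not given in the sources used here. Symbols came from a table of gene names by Ensembl identifier (32688 of 52636 identifiers matched), exon lengths from GENCODE vM1, and positions and promoter windows from RefSeq (GRCm38.p6).

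The 10 genes and the 16 other lists were chosen with earlier results of these data known. Within a region, genes under 1 CPM in any library were left out. After TMM scaling, edgeR 4.0.16 in R 4.3.3 fitted genotype plus sex, with quasi-likelihood tests and p-values adjusted by Benjamini-Hochberg over all tested genes. SE is the log2 difference divided by the root of F. Interaction terms tested sex by genotype in each region and, over 27 libraries, region by genotype. Levels are CPM scaled by TMM over all libraries, with 0.5 CPM added before taking logs for correlations (100000 permutations, two-sided). The genes named of each list are those past the threshold or, otherwise, up to 4 of smallest p in each region, and the 5 most correlated with the mean of the targets are given per region. Dusp1 in frontal cortex, Mt1, Fam107a and the pairs described were chosen after their values or sequences were seen. Alternatives were edgeR's likelihood ratio test (the study's), DESeq2 1.42.0, limma-voom (limma 3.58.1), other scalings and filters, other model terms (no sex, RNA integrity number, trimming records) and each library left out in turn. Leaving out libraries 15, 20 and 22 together was added after seeing the data. The genotype test in each region and the region by genotype test were checked on simulated counts before use. The region, sex and sex by genotype tests were not.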

Additional observations from a re-analysis of the deposited data

Results flagged for a closer look

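Of 40 combinations of gene and group tested for a library far from the rest of its group, 2 were singled out, where chance gives about 1 in 20. Zbtb16 in the KO cortex was highest in library 1, a female, at 114 CPM with the next library at 76.9, a gap of 0.679 of the group's range on the log2 scale (critical value 0.625 for 6 libraries). Cdkn1a in the WT striatum was lowest in library 14, a female, at 8.53 CPM with the next at 12.1, a gap of 0.628 of the range (critical value 0.568 for 7 libraries). No test of a genotype effect between sexes or regions passed for any of the 10 genes by the edgeR quasi-likelihood test.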

How the results depend on the processing

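Of 1630 values of 60 results for single genes over all alternatives, 1557 kept their direction and side of the threshold, 16 came to pass it, 15 no longer passed and 42 changed sign, and the causes were not tested. In frontal cortex the genotype test called 53 genes, and 459 with no filter, 232 with the likelihood ratio test, 247 with DESeq2, 29 with the RNA integrity number and 8 (without WT library 10) to 99 (without KO library 1) with a library left out. Of the 10 genes it called 0, and 2 with no filter, 1 with the likelihood ratio test, 1 with DESeq2 and 0 to 1 with a library left out. In striatum it called 5, and 10 with no filter, 56 with the likelihood ratio test, 112 with DESeq2, 3 with limma-voom, 13 with filterByExpr, 3 without the sex term, 13 without libraries 15, 20 and 22, and 3 to 8 with a library left out, with 0 of the 10 genes in each. The sex by genotype test called 3 in frontal cortex, and 310 with no filter (6 of the 10 genes), 12 with the likelihood ratio test, 8 with DESeq2 and 2 to 5 with a library left out, and 0 in striatum, with 1, 2 and 0 to 2 in the last 3. The sex test called 6 in frontal cortex, and 185 with no filter, 28 with the likelihood ratio test, 21 with DESeq2 and 14 with filterByExpr, and 6 in striatum, and 14, 12, 16 and 12 in that order and 1 without libraries 15, 20 and 22.

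Signs changed for the following values. The striatal Plin4 difference was -0.067 with limma-voom and -0.11 without the sex term. Without libraries 15, 20 and 22 the region by genotype term was 0.11 for Sgk1, 0.049 for Tsc22d3, 0.039 for Pdk4 and 0.042 for Klf9, against -0.13, -0.10, -0.19 and -0.0087 with them. The sex by genotype term of Klf9 in frontal cortex was -0.0044 with filterByExpr. With a library left out, the genotype difference ran from -0.10 to 0.086 for Zbtb16 in frontal cortex and, in striatum, from -0.12 to 0.068 for Fkbp5, -0.29 to 0.30 for Zbtb16, -0.13 to 0.024 for Cdkn1a and -0.068 to 0.50 for Plin4. The region by genotype term ran from -0.25 to 0.010 for Sgk1, -0.45 to 0.21 for Zbtb16 (-0.27 with all libraries) and -0.053 to 0.065 for Klf9. The sex by genotype term ran from -0.20 to 0.079 for Pdk4, -0.76 to 0.031 for Cdkn1a (-0.43 with all libraries), -0.079 to 0.079 for Klf9 and -0.042 to 0.19 for Nr3c1 in frontal cortex, and from -0.34 to 0.040 for Cdkn1a in striatum.

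Groups held 6 to 8 libraries, and the lowest count of any of the 10 genes was 30, for Plin4. How much of the spread between libraries is counting error was not tested. No paired analysis was possible because the groups share no replicate numbers in the labels.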
